A study of Mus musculus with 12 samples.

Results

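The comparison set the brains of sham-operated mice labelled Sham-Fabp4CKO against those labelled Sham-Fabp4fl_fl, with 3 libraries in each group, which were 6 of the 12 RNA-seq libraries of the series. The libraries were chosen by their column labels alone, and all genes were taken, of which 14395 of 21956 held enough counts to be tested. The question was which transcripts differed between the genotypes in mice that had received no hemorrhage. The Sham-Fabp4fl_fl mice carried loxP-flanked Fabp4 alleles, and the Sham-Fabp4CKO mice carried these alleles together with TMEM119-creERT2, an inducible Cre recombinase driven from a microglial gene. The knockout mice had been given tamoxifen before surgery. Whether the floxed mice received tamoxifen or carried Cre, and the age and sex of these animals, were not given in the sources used here. Sham surgery was the operation without collagenase, and the tissue was the brain region matching the surroundings of the hematoma that collagenase produced in the right striatum of the other mice. Each column was a separate numbered sample, and nothing stated whether each came from one animal, so the p-values measure only the spread between these samples.

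Fabp4 encodes a cytosolic carrier of long-chain fatty acids that is best known from adipocytes and macrophages. Microglia are the resident macrophages of the brain parenchyma, and Tmem119, P2ry12 and Cx3cr1 are among the genes that mark them in the resting state. The choroid plexus is a separate epithelium that hangs in the ventricles and secretes cerebrospinal fluid. Its cells export transthyretin and carry water channels, ion transporters and tight junctions. In bulk tissue, fewer cells of a type and less RNA per cell cannot be told apart.

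The libraries held 17562598 to 22406216 counts. Mitochondrial genes took 8.39% to 9.95% of the counts, and all 6 libraries held Y-linked transcripts. The third Sham-Fabp4fl_fl library stood apart from the rest of its group. On the first principal component, which held 54.1% of the variance, it lay at 17.2, beside the 3 Sham-Fabp4CKO libraries at 18.4, 28.4 and 16.8, whereas the first and second Sham-Fabp4fl_fl libraries lay at -43.8 and -37.0. The count differences between library pairs, as chi-square per gene, gave 16.9, 17.0 and 20.4 between the third Sham-Fabp4fl_fl library and the 3 knockout libraries, but 63.5 and 48.7 between it and the other two floxed libraries. Without it, edgeR called 1331 genes lower (9.12% of 14602 tested) and 1531 higher (10.5%), and the counts of list members called in that fit, given below, stand against these shares.

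Genes of the choroid plexus epithelium made up most of those that passed the test, with 10 of 16. By the quasi-likelihood test of edgeR, with p-values adjusted after Benjamini and Hochberg, 16 genes were lower in Sham-Fabp4CKO (0.111% of the genes tested) and 0 were higher (0%), while 874 were lower (6.07%) and 597 higher (4.15%) at an unadjusted p under 0.05. With a fold change of at least 1.5 as well, 465 were lower (3.23%) and 125 higher (0.868%). DESeq2 called 139 lower (0.966%) and 11 higher (0.0764%). Of the 26 choroid plexus genes tested, from a list of 27, 10 fell, and the 26 had a median log2 fold change of -2.56, beside 0.0026 for all genes tested. Setting Wfdc2, which had no counts in the knockout, at its lower bound left that median at -2.56. All 26 had a log2 fold change below 0, and in 22 the groups did not overlap, beside 8.16% of all genes. The list was chosen with earlier results of these data known, so its counts describe it only. DESeq2 called 22 of the 26 lower, and edgeR called 22 without the third Sham-Fabp4fl_fl library, beside 9.12% of all genes in that fit.

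**Figure D1:**
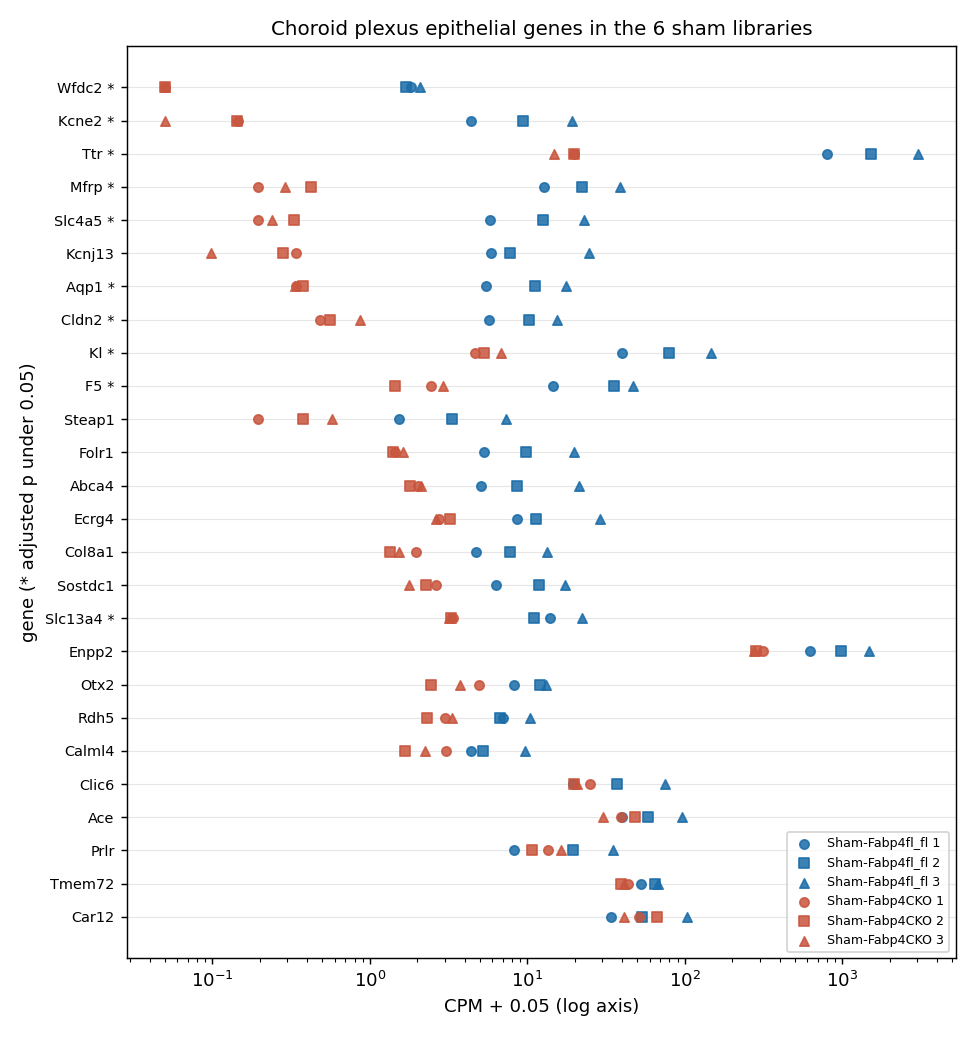
Each row is a choroid plexus gene and each point a library, with the CPM plus 0.05 on a log axis (blue, Sham-Fabp4fl_fl; red, Sham-Fabp4CKO; marker shape, library number), and asterisks mark the 10 genes that passed the adjusted threshold. Ttr runs from 799.7 CPM or more in the floxed libraries to 19.7 CPM or less in the knockout, and the groups overlap in Clic6, Prlr, Ace and Car12.

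Promoters of 3 of the called genes are shown because they have different roles in that epithelium, a membrane protein, a water channel and a bicarbonate transporter, and because the group moved together. Each runs over the 250 bases before the start site on the plus strand, from RefSeq on GRCm38.p6, at chr9:44101520-44101769 for Mfrp, chr6:55336049-55336298 for Aqp1 and chr6:83237125-83237374 for Slc4a5. Capitals mark a match to TAATCC, the core motif of the choroid plexus factor OTX2, or to TATAAA, the TATA box, each searched on both strands. In Mfrp the match to TAATCC lies on the minus strand, with its first base at -134. In Slc4a5 the match to TATAAA lies on the minus strand at -127. Aqp1 has no match in this window.
Mfrp: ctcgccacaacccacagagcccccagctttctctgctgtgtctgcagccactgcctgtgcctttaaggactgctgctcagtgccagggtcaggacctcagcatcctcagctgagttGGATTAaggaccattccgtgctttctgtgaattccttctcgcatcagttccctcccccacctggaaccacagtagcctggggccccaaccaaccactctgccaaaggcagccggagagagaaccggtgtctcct
Aqp1: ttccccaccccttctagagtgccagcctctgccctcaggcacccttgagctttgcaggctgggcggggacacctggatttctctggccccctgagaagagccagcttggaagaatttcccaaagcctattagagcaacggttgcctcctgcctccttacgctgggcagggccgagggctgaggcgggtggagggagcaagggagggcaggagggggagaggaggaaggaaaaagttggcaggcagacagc
Slc4a5: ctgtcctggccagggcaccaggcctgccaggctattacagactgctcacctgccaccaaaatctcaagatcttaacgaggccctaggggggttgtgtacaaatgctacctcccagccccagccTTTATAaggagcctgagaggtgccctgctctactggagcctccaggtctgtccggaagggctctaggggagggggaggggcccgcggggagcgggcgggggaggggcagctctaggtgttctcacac
The motif TAATCC was found in 2054 of 32851 promoters of this length (6.25%) and in 4 of 30 promoters of the 22 choroid plexus genes that could be matched. TATAAA was found in 4063 of all promoters (12.4%) and in 6 of those 30. These matches describe the sequence only.

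Ttr encodes transthyretin, which carries thyroxine and retinol-binding protein into the cerebrospinal fluid. It had 799.7, 1533 and 3024 CPM (counts per 1000000, on TMM-normalized library sizes) in Sham-Fabp4fl_fl libraries 1 to 3, and 19.7, 19.7 and 14.7 CPM in the knockout libraries. The groups stood far apart, with a mean of 1786 ± 1134 CPM (SD, n = 3) against 18.1 ± 2.90 CPM. The log2 fold change was -6.63 ± 0.535 (SE), with an adjusted p of 0.0202 in edgeR. Each floxed library exceeded each knockout library, and the third floxed library, which otherwise resembled the knockout libraries, held the highest level.

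The transport proteins of the epithelium followed. Aqp1, the apical water channel, had 5.46, 11.1 and 17.5 CPM in the floxed libraries and 0.288, 0.325 and 0.286 CPM in the knockout, a log2 fold change of -5.21 ± 0.520 (SE, edgeR adjusted p = 0.0328). Slc4a5, a sodium bicarbonate cotransporter, had 5.76, 12.6 and 22.9 CPM against 0.144, 0.278 and 0.191 CPM (log2 fold change -6.02). Kcne2, a subunit of potassium channels, had 4.33, 9.40 and 19.2 CPM against 0.0959, 0.0928 and 0 CPM. In all 3 genes the groups did not overlap. Slc13a4, a sulfate transporter, fell by 2.27 on the log2 scale, from 13.97, 10.9 and 22.1 CPM to 3.31, 3.25 and 3.15 CPM. Cldn2, the claudin of leaky tight junctions, fell by 4.14, from 5.71, 10.2 and 15.4 CPM to 0.431, 0.510 and 0.812 CPM.

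Secreted and membrane proteins of the same epithelium fell as well. Mfrp, a frizzled-related membrane protein whose gene overlaps C1qtnf5 so that reads of the pair may be split uncertainly, had 12.8, 22.3 and 38.5 CPM in the floxed libraries and 0.144, 0.371 and 0.239 CPM in the knockout. Its log2 fold change was -6.57 ± 0.562 (SE, edgeR adjusted p = 0.0204). Kl encodes Klotho, a coreceptor for an endocrine fibroblast growth factor that is also shed into the fluid. It had 39.9, 79.9 and 146 CPM against 4.60, 5.29 and 6.73 CPM, and fell by 4.00 on the log2 scale. F5, coagulation factor V, fell by 3.87, from 14.6, 35.4 and 47.2 CPM to 2.40, 1.39 and 2.86 CPM. Wfdc2, a secreted protease inhibitor, had 36, 29 and 38 counts in the floxed libraries and 0 in every knockout library. That makes it at least 12.8-fold lower against a floor of 3 counts per library. With CPM over all 12 libraries, it was 0.501, 0.633 and 0 CPM in ICH-Fabp4fl_fl libraries 1 to 3. In ICH-Fabp4CKO it was 0.657, 0.160 and 0.557 CPM. Scgb1a1, a lung gene described below, was also 0 in the third ICH-Fabp4fl_fl library and present in ICH-Fabp4CKO. Whether the Wfdc2 transcripts came from this epithelium was not tested. In Mfrp, Kl, F5 and Wfdc2 the floxed sham group was separated from the knockout.

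The order of the floxed libraries was shared by most of these genes. Summed over the list, the choroid plexus genes gave 1736, 3030 and 5374 CPM in Sham-Fabp4fl_fl libraries 1 to 3 and 539, 517 and 472 CPM in the knockout libraries. The remaining 16 tested members did not pass the adjusted threshold. Among them Kcnj13, a potassium channel, had 5.81, 7.76 and 24.5 CPM against 0.288, 0.232 and 0.0477 CPM, with an adjusted p of 0.0732 in edgeR. Folr1, the folate receptor, had 5.26, 9.74 and 19.6 CPM against 1.39, 1.35 and 1.58 CPM. Enpp2, which makes lysophosphatidic acid and is also expressed by oligodendrocytes, had 621, 985 and 1475 CPM against 314, 284 and 274 CPM. Otx2, the transcription factor of the epithelium, had 8.17, 12 and 13.2 CPM against 4.89, 2.41 and 3.68 CPM. In these 4 genes the groups did not overlap. In Clic6, Prlr, Ace and Car12, which other brain cells also express, they did.

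**Figure D2:**
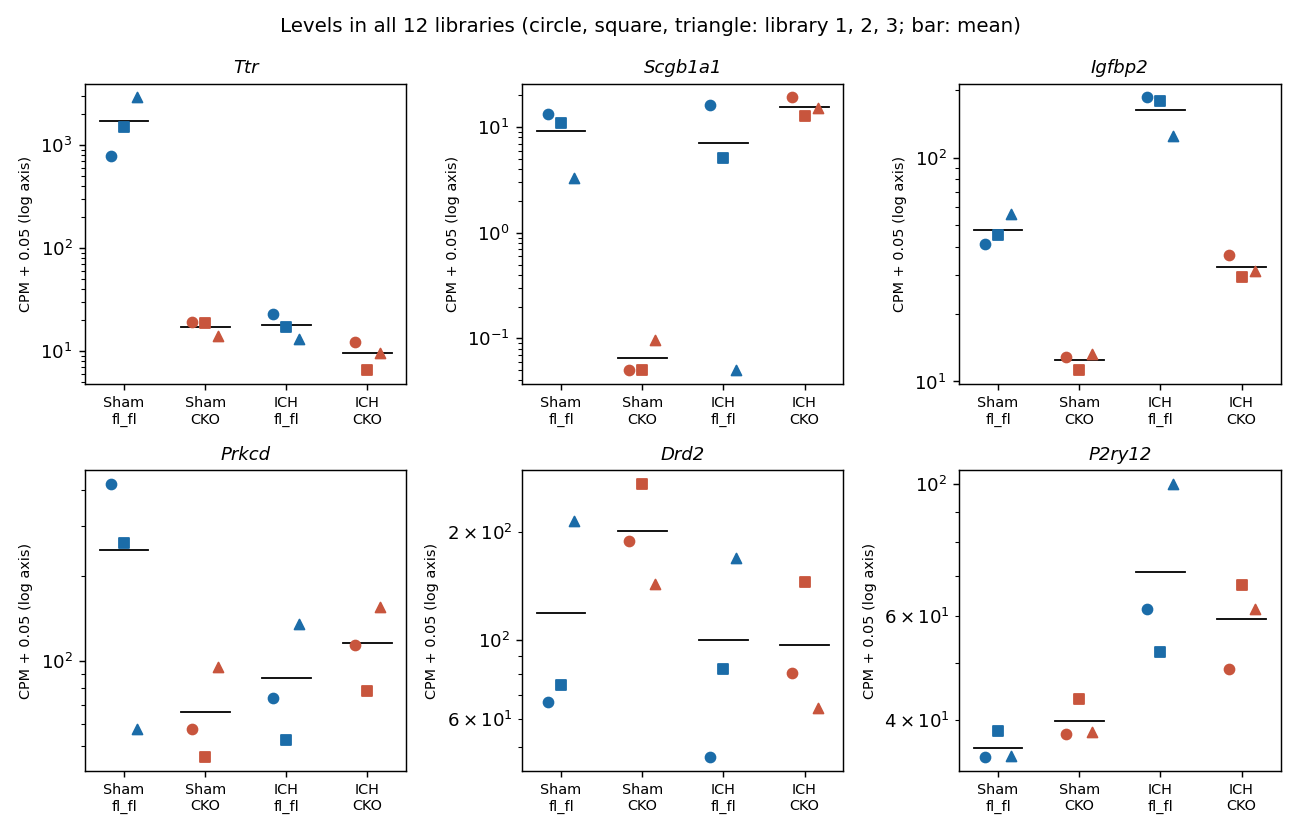
Each panel gives a gene, with CPM plus 0.05 on a log axis and the 3 libraries of each of the 4 groups as points with their mean as a bar. Ttr is high in the 3 Sham-Fabp4fl_fl libraries alone, at 778 to 2896 CPM, whereas Prkcd is high in 2 of them and Scgb1a1 also appears in the hemorrhage groups.

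The hemorrhage libraries placed these levels in the series. In 20 of the 26 choroid plexus genes all 3 Sham-Fabp4fl_fl libraries lay above all 9 other libraries, beside 179 of 14395 genes overall (1.24%). With CPM computed over all 12 libraries, Ttr was 778, 1476 and 2896 CPM in Sham-Fabp4fl_fl, 23.1, 17.2 and 13.1 CPM in ICH-Fabp4fl_fl and 12.4, 6.497 and 9.58 CPM in ICH-Fabp4CKO. For Ttr the Sham-Fabp4CKO level was thus close to that of both hemorrhage groups, and the floxed sham libraries alone were high. In the fit of all 12 libraries, the genotype effect in sham minus that after hemorrhage differed from 0 for 3 of 15089 genes (0.0199%), which were Ttr, Folr1 and Tbx1, the last named after its value was seen. DESeq2 called 266, and 1500 passed an unadjusted p under 0.05 in edgeR. The ICH-Fabp4CKO library numbered 1 held 0 counts of the Y-linked Ddx3y, against 596 to 923 in the other hemorrhage libraries, and it enters that fit. Leaving out single libraries gave 0 to 371 genes, and 0 when that library was left out.

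Igf2 and Igfbp2, which encode insulin-like growth factor 2 and a binding protein of these factors, stood on the list of fibroblast and meningeal genes and are also expressed in choroid plexus. Igfbp2 had 42.4, 47.1 and 58.3 CPM in the floxed libraries and 13.4, 11.7 and 13.8 CPM in the knockout. It fell by 1.92 ± 0.142 (SE) on the log2 scale, with an edgeR adjusted p of 0.0202. Igf2 had 79.8, 97.4 and 132 CPM against 28.6, 25.8 and 32.0 CPM, and fell by 1.84. These were the 2 called genes of 15 on that list, whose median log2 fold change was -1.10 and in which 10 had lower groups that did not overlap, beside 8.16% of all genes. DESeq2 called 7 of the 15 lower, and edgeR called 12 without the third floxed library. Outside the lists, Cdh3, which encodes P-cadherin, had 1.33, 1.42 and 1.81 CPM against 0.192, 0.186 and 0.143 CPM. Prr32, a gene whose product is little described, had 51, 98 and 117 counts against 2, 0 and 0. Its ratio of floxed to knockout was 149, with a 95% interval of 40.7 to 1233 that covers counting error only.

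Genes that mark the secretory epithelium of the lung formed a separate group. Their list was chosen after the values were seen, so it supports nothing beyond its description. Scgb1a1, the secretoglobin of airway club cells, had 277, 200 and 64 counts in Sham-Fabp4fl_fl libraries 1 to 3 and 0, 0 and 1 in the knockout, a ratio of 604 with a 95% interval of 108 to 23904 for counting error. Sftpa1, a surfactant protein, had 49, 64 and 54 counts against 0 in each knockout library and was at least 20.9-fold lower. Both passed the adjusted threshold (edgeR adjusted p = 0.0328). With the third floxed library alone against the knockout, the edgeR adjusted p was 0.0168 for Scgb1a1 and 0.0774 for Sftpa1. All 8 testable genes of the list had groups that did not overlap, and the sum over all 13 list members was 46.1, 41.8 and 14.3 CPM against 0.527, 0.974 and 0.955 CPM. The same transcripts were present in the ICH-Fabp4CKO libraries, with 291, 237 and 270 counts of Scgb1a1, and they were 227, 79 and 0 counts in ICH-Fabp4fl_fl libraries 1 to 3. Their presence thus did not follow the genotype across the series, and its origin was not tested.

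Fabp4 itself could not be tested in the sham tissue. It had 2, 1 and 2 counts in the floxed libraries and 0 in each knockout library, and both groups lay at or under a floor of 3 counts per library, so no fold is given. The deletion therefore could not be checked at this depth from these 6 libraries. Among the other fatty acid binding proteins, Fabp5 had 92.5, 80.3 and 58.2 CPM against 60.9, 58.6 and 54.6 CPM, with overlapping groups (log2 fold change -0.41 ± 0.162, SE, edgeR adjusted p = 0.484). Fabp9 and Fabp12 had 0 counts in all 6 libraries, and Pmp2 had 1 in total.

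The markers of resting microglia were detected at similar levels in both groups. Of 25 tested, 0 passed the adjusted threshold in edgeR or in DESeq2, 3 were higher at an unadjusted p under 0.05, and their median log2 fold change was -0.09. Tmem119, the gene that drives the Cre, had 32.1, 24.9 and 27.2 CPM in the floxed libraries and 29.6, 34.6 and 27.8 CPM in the knockout (log2 fold change 0.13 ± 0.129, SE, edgeR adjusted p = 0.683). The groups overlapped. Sall1, a transcription factor of microglial identity, had 30.3, 30.3 and 31.2 CPM against 34.03, 39.7 and 34.6 CPM, and Mertk, a receptor for apoptotic cells, had 24.3, 22.4 and 23.1 CPM against 26.8, 27.9 and 27.8 CPM. In these 2 genes the knockout libraries were the higher, with an adjusted p of 0.481 and 0.479 in edgeR.

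Genes of activated microglia and of antigen presentation did not pass the adjusted threshold in edgeR. Of the 19 disease-associated microglial genes tested, 0 passed in edgeR and 1 in DESeq2, while 4 were lower at an unadjusted p under 0.05 and edgeR called 9 lower without the third floxed library. Of the 19, 15 had a log2 fold change below 0 and 4 above, with a median of -0.34. The mean log2 CPM of the list was 5.997 in the first floxed library and 5.098 and 5.017 in the other floxed libraries. In the knockout libraries it was 4.938 to 5.084. Summed, the list gave 5395 to 7352 CPM in the floxed and 5744 to 6159 CPM in the knockout libraries. Abundant members such as Fth1 and Apoe weigh most in that sum. Some members stood high in 1 library. Gpnmb, a glycoprotein of lipid-laden phagocytes, had 830 counts in the first Sham-Fabp4fl_fl library and 32 to 54 in the other 5. Itgax, the integrin CD11c, had 138 counts in that library and 4 to 14 in the others. Of 6 MHC class II genes, 5 were lower and 1 higher at an unadjusted p under 0.05. Lower groups that did not overlap were found in 4, beside 8.16% of all genes, and higher ones in 1, beside 6.68%. DESeq2 called 1 lower, and edgeR called 4 lower without the third floxed library. The higher one, H2-DMa, which loads peptide onto class II, had 10.2, 8.49 and 9.06 CPM against 11.1, 13.6 and 10.8 CPM. Cd74, the invariant chain of MHC class II, had 27.1 CPM in the first floxed library and 5.38 and 4.48 CPM in the other floxed libraries. In the knockout it had 2.30, 3.48 and 2.05 CPM (edgeR adjusted p = 0.464). Lgals3, or galectin-3, had 5.02, 3.23 and 2.99 CPM against 1.10, 1.81 and 1.81 CPM, so that its groups did not overlap, with an adjusted p of 0.372 in edgeR.

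Interferon-response genes showed one direction without passing the test. All 20 tested had a log2 fold change below 0, with a median of -0.71. In 6 the groups did not overlap and the knockout was lower, beside 8.16% of all genes. Yet 0 passed in edgeR and 2 in DESeq2, with 12 lower at an unadjusted p under 0.05. Bst2, or tetherin, had 4.92, 5.49 and 2.93 CPM in the floxed libraries and 1.68, 1.58 and 1.62 CPM in the knockout (edgeR adjusted p = 0.229). Without the third Sham-Fabp4fl_fl library, 16 of the 20 were called lower by edgeR, beside the 9.12% of all genes. With the third floxed library alone against the knockout, the median of the list was -0.016. Of the inflammatory mediators, Vcam1, an endothelial adhesion molecule, had 46.3, 42.2 and 42.2 CPM against 35.8, 35.0 and 31.1 CPM, with groups that did not overlap and an adjusted p of 0.392. Tnf had at most 5 counts in any of the 6 libraries and was not tested. S100a9, an alarmin of neutrophils, had 2 to 21 counts with overlapping groups.

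**Figure D3:**
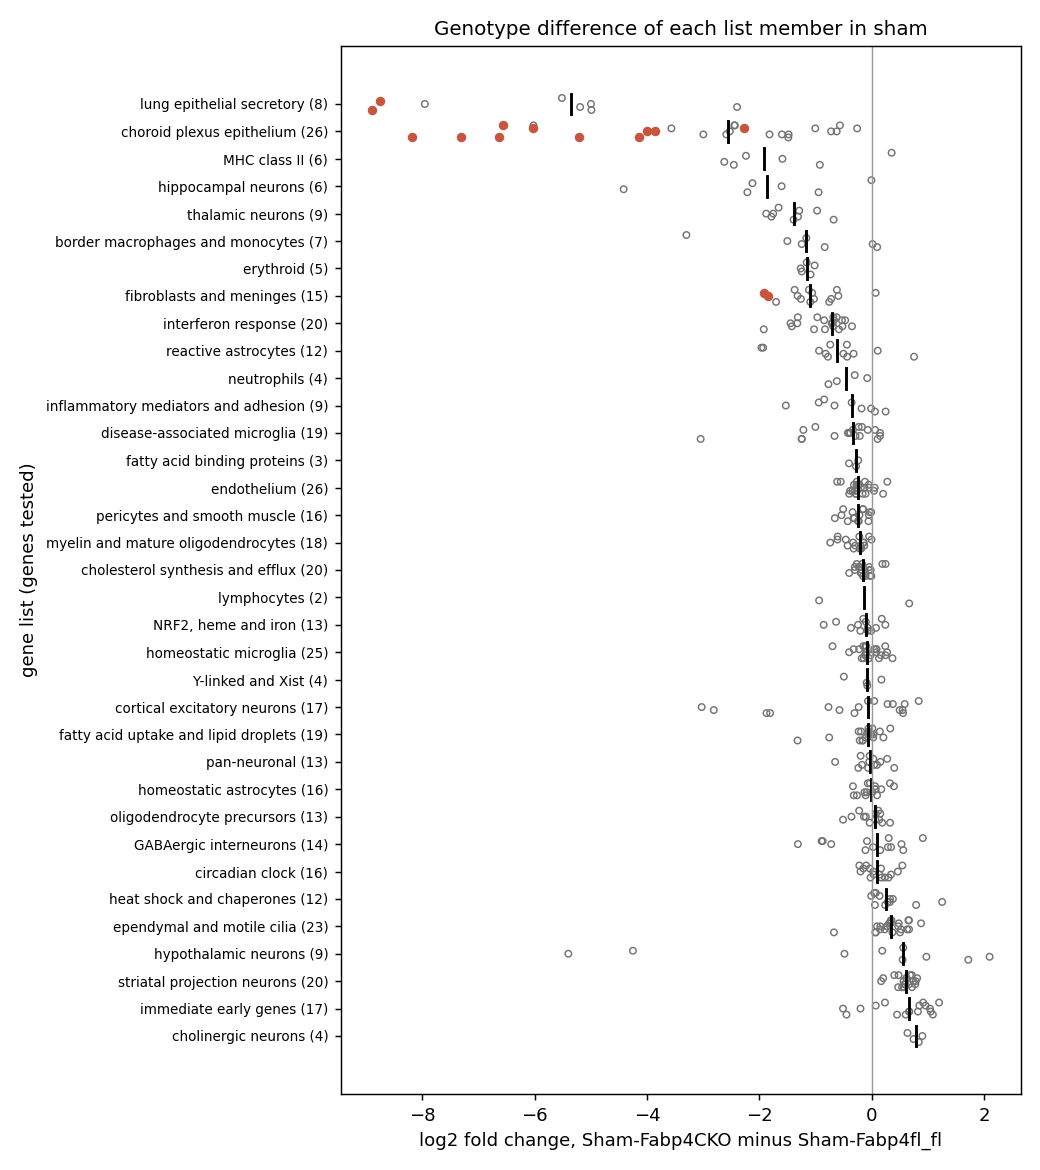
Each point is a tested member of the list named on the vertical axis, placed by its log2 fold change (Sham-Fabp4CKO minus Sham-Fabp4fl_fl), with filled points for genes that passed the adjusted threshold and black bars for list medians. The filled points stand in the choroid plexus, fibroblast and lung lists, and the homeostatic microglia lie around 0 with a median of -0.09.

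Vascular transcripts gave 0 calls in edgeR. Of 26 endothelial genes tested, 22 had a log2 fold change below 0, their median was -0.25, and 9 had lower groups that did not overlap, beside 8.16% of all genes. The other 4 lay above 0. At an unadjusted p under 0.05, 6 were lower, and DESeq2 called 0 of the 26. Without the third floxed library edgeR called 9 endothelial and 6 mural genes lower. Slco1a4, an organic anion transporter of the blood-brain barrier, had 55.4, 63.2 and 42.1 CPM against 39.1, 35.8 and 34.5 CPM (log2 fold change -0.55 ± 0.150, SE, edgeR adjusted p = 0.407). All 16 mural genes tested lay below 0 with a median of -0.24, and Tagln, a smooth muscle protein, had 9.59, 9.57 and 8.53 CPM against 6.999, 6.35 and 6.06 CPM. All 5 red blood cell genes tested, among them hemoglobins, whose transcripts blood in the tissue carries, had a log2 fold change below 0. Of these, 0 passed in edgeR or DESeq2 and 0 at an unadjusted p under 0.05. Summed, they gave 129 CPM in the third knockout library, beside 126 to 170 CPM in the floxed libraries. Hbb-bs had 83.8, 62.9 and 61.7 CPM against 20.04, 8.16 and 58.5 CPM. The part of blood content in the vascular values was not tested.

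Markers of neurons from different brain regions varied among the floxed libraries. Prkcd, a protein kinase C of thalamic relay neurons, had 433 and 271 CPM in Sham-Fabp4fl_fl libraries 1 and 2, 60.1 CPM in the third, and 60.0, 47.9 and 99.6 CPM in the knockout (edgeR adjusted p = 0.477). Drd2, the dopamine receptor of striatal indirect-pathway neurons, showed the opposite order, with 68.9, 77.7 and 224 CPM in the floxed libraries and 197, 286 and 150.2 CPM in the knockout. The third floxed library lay within the knockout range for both genes. All 9 thalamic genes had a log2 fold change below 0 and all 20 striatal genes one above 0, with medians of -1.39 and 0.60, and 0 of either list passed in edgeR or DESeq2. At an unadjusted p under 0.05, 6 thalamic genes were lower and 1 striatal gene higher.

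Removal of the third Sham-Fabp4fl_fl library turned these regional differences into calls. All 9 thalamic genes were then called lower and 18 of 20 striatal genes higher by edgeR. Of 9 hypothalamic genes tested, 2 were then called lower and 2 higher. With all 6 libraries, 6 of these 9 had a log2 fold change above 0 and 3 below, with a median of 0.55. At an unadjusted p under 0.05, 2 were higher and 2 lower, and 0 passed in edgeR or DESeq2. Hcrt, which encodes the orexin peptides of the lateral hypothalamus, had 697 and 789 counts in Sham-Fabp4fl_fl libraries 1 and 2, 1 in the third, and 35, 0 and 4 in the knockout. When only the third floxed library was set against the knockout, its log2 fold change turned from -5.40 to 3.39, and that of Prkcd from -1.88 to 0.20. Ttr fell by 7.39 on the log2 scale in that comparison, Igfbp2 by 2.17 and Aqp1 by 5.85, and the part of regional content in these differences was not tested. Regional content and genotype cannot be told apart in the other two floxed libraries.

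**Figure D4:**
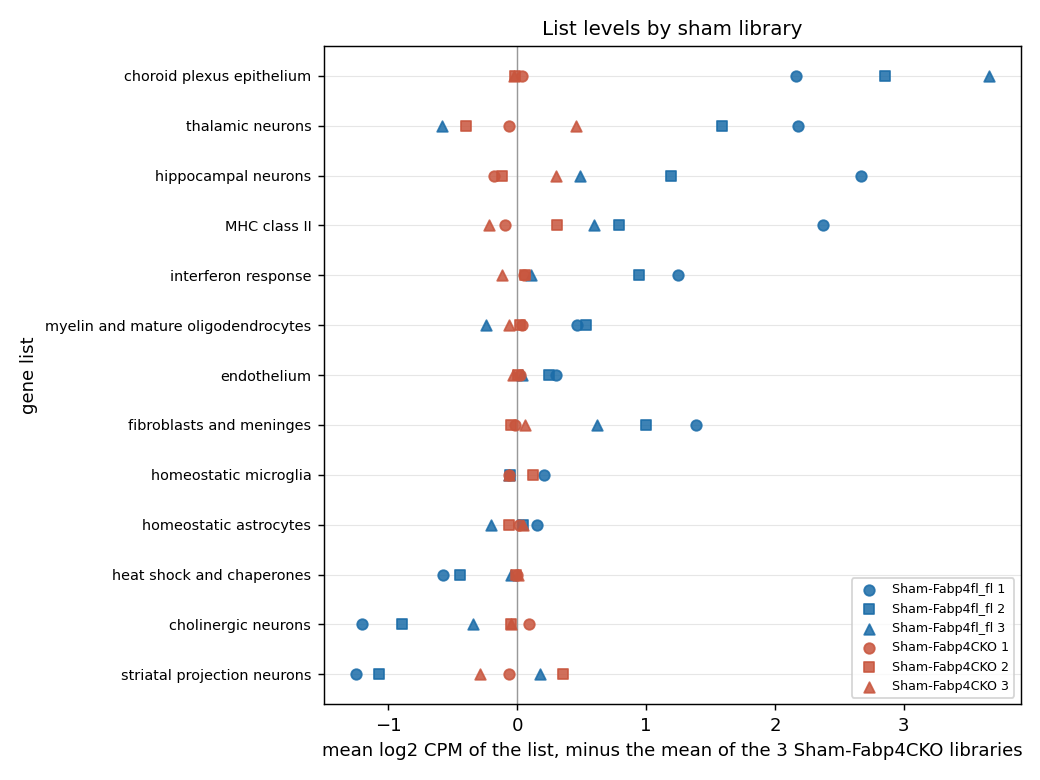
Points give the mean log2 CPM of each list in a library, relative to the mean of the 3 knockout libraries (blue, Sham-Fabp4fl_fl; red, Sham-Fabp4CKO; marker shape, library number). The third floxed library, a blue triangle, lies with the knockout libraries for the thalamic and striatal lists but is the highest for the choroid plexus list.

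Pan-neuronal, homeostatic astrocyte and myelin lists gave 0 calls in edgeR and in DESeq2. At an unadjusted p under 0.05, 1 of 13 pan-neuronal and 2 of 16 astrocyte genes were higher and 1 of 18 myelin genes was lower. The 13 pan-neuronal genes had a median log2 fold change of -0.04. Snap25, a synaptic vesicle fusion protein, had 1396, 1646 and 964 CPM against 1212, 1126 and 1204 CPM. The 4 cholinergic genes had groups that did not overlap and lay higher in the knockout, beside 6.68% of all genes. Their mean log2 CPM was 3.36, 3.67 and 4.22 in Sham-Fabp4fl_fl libraries 1 to 3 and 4.65, 4.51 and 4.51 in the knockout. The part of regional content in this difference was not tested. Chat, the enzyme that makes acetylcholine, had 12.6, 17.2 and 25.6 CPM against 36.2, 31.6 and 30.9 CPM (log2 fold change 0.83 ± 0.233, SE, edgeR adjusted p = 0.423), and DESeq2 called 1 of the 4. Without the third floxed library edgeR called all 4 higher, and it called 3 pan-neuronal genes lower and 1 higher.

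Among glial genes, Slc1a3, the astrocytic glutamate transporter GLAST, had 456, 443 and 528 CPM in the floxed libraries and 618, 601 and 653 CPM in the knockout, with an adjusted p of 0.361 in edgeR. The 3 knockout libraries were the higher. Gfap, the intermediate filament of reactive astrocytes, had 407, 246 and 133 CPM against 161, 141 and 154 CPM, and its groups overlapped. Mbp, myelin basic protein, had 8491, 8489 and 4777 CPM against 6291, 6717 and 6041 CPM. The mean log2 CPM of the myelin list was 7.70, 7.77 and 6.99 in the floxed libraries and 7.28, 7.26 and 7.17 in the knockout. The third floxed library thus lay below each knockout library. All 18 myelin genes had a log2 fold change below 0, with a median of -0.22, and 14 were called lower without the third floxed library. In the same fit edgeR called 3 homeostatic astrocyte genes lower and 2 higher. Of 23 ependymal and cilia genes, which mark the other cells that line the ventricles, 22 lay above 0 with a median of 0.34, with 0 called by edgeR or DESeq2, 4 higher at an unadjusted p under 0.05 and 7 called higher by edgeR without the third floxed library. Foxj1, their master transcription factor, had 22.1, 22.7 and 27.7 CPM against 25.7, 33.4 and 34.3 CPM. The mean log2 CPM of the ependymal list was 1.98, 1.93 and 2.58 in the floxed libraries and 2.38, 2.42 and 2.76 in the knockout. The third floxed library thus lay within the knockout range for this list.

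The lipid-handling lists gave 0 calls in edgeR and in DESeq2, and 1 of their genes was lower at an unadjusted p under 0.05. Without the third floxed library edgeR called 7 cholesterol genes lower and 1 higher, and 2 uptake genes lower. Of 19 genes of fatty acid uptake and lipid droplets, 13 lay below 0 with a median of -0.06, and of 20 genes of cholesterol synthesis and efflux, 18 lay below 0 with a median of -0.17. Cd36, a fatty acid translocase, had 2.75, 3.85 and 1.87 CPM against 1.34, 0.696 and 1.34 CPM (edgeR adjusted p = 0.423). Of 13 genes of heme, iron and antioxidant metabolism, 0 passed in edgeR and 1 in DESeq2, and 3 were lower at an unadjusted p under 0.05, with 2 lower and 1 higher in edgeR without the third floxed library. Hmox1, heme oxygenase 1, had 11.02, 6.62 and 8.42 CPM against 4.99, 4.68 and 4.73 CPM, with groups that did not overlap and an adjusted p of 0.341 in edgeR. Bach1, the repressor of Hmox1, had 14.7, 15.9 and 12.6 CPM against 12.9, 11.2 and 13.3 CPM.

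The medians of the heat-shock and early-response lists lay above 0. Of 12 chaperone genes 11 lay above 0, and 4 had groups that did not overlap, with 0 called by edgeR, 1 by DESeq2 and 3 higher at an unadjusted p under 0.05. The share of all genes with higher groups that did not overlap was 6.68%, and edgeR called 7 of the 12 higher without the third floxed library. Hspa1b, an inducible HSP70, had 4.08, 8.04 and 12.8 CPM in the floxed libraries and 20.8, 21.1 and 17.2 CPM in the knockout (log2 fold change 1.25 ± 0.349, SE, edgeR adjusted p = 0.423). Immediate early genes, which neuronal activity and tissue handling induce within minutes, had a median of 0.66 over 17 genes, with 0 called by edgeR or DESeq2 and 5 higher at an unadjusted p under 0.05, and 5 higher and 2 lower in edgeR without the third floxed library. Of the 17, 0 had groups that did not overlap. The mean log2 CPM of this list was 4.61, 4.54 and 4.60 in the floxed libraries and 5.33, 5.59 and 4.36 in the knockout. The third knockout library was thus the lowest of all. Nr4a1 had 46.5, 44.3 and 57.6 CPM against 123, 172 and 44.8 CPM, so the third knockout library lay among the floxed ones.

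The other lists held 0 calls in edgeR. At an unadjusted p under 0.05, 4 of 6 hippocampal genes were lower, and Dsp, a desmosomal protein of dentate granule cells, had 602 counts in the first floxed library, 52 and 56 in the other floxed libraries and 8 to 14 in the knockout. Of 17 cortical genes 4 were lower and 1 higher at that level, and Neurod2, a transcription factor of cortical excitatory neurons, had 39.6, 21.3 and 2.35 CPM against 3.21, 3.62 and 0.907 CPM. Both genes were highest in the first floxed library. Without the third, edgeR called 5 hippocampal genes lower, and 7 cortical genes lower and 2 higher. Of 7 genes of border macrophages and monocytes, 1 was lower at an unadjusted p under 0.05 and DESeq2 called 1. Without the third floxed library edgeR called 3 of the 7 lower. Lyve1, a hyaluronan receptor of perivascular macrophages, had an unadjusted p of 0.0522 in edgeR and so did not pass that level. It had 0.787, 0.849 and 0.960 CPM against 0.240, 0.0464 and 0.621 CPM. The 16 clock genes, the 4 neutrophil genes and the 2 lymphocyte genes held 0 calls in either tool and 0 at an unadjusted p under 0.05. Without the third floxed library edgeR called 6 clock genes higher, 1 lymphocyte gene higher and 1 lower.

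Since 0 genes were higher at the adjusted threshold, the genes higher in the knockout are given by their unadjusted order among those with groups that did not overlap. Glcci1, a glucocorticoid-induced transcript, had 8.02, 10.6 and 14.1 CPM in the floxed libraries and 30.9, 25.6 and 25.97 CPM in the knockout. Its log2 fold change was 1.33 ± 0.199 (SE), with an adjusted p of 0.124 in edgeR, which was the smallest among the higher genes, and DESeq2 called it. Elfn1, a synaptic adhesion protein of interneuron inputs, had 24.9, 30.5 and 40.9 CPM against 58.4, 50.2 and 57.6 CPM. Ache, the acetylcholinesterase, had 103, 107 and 105 CPM against 145, 129 and 134 CPM. Acly, the enzyme that supplies cytosolic acetyl-CoA for lipid synthesis, had 273, 285 and 313 CPM against 396, 375 and 359.6 CPM. That the 3 knockout libraries lay above the floxed ones in each of these genes follows from this choice. Such groups were found in 6.68% of all genes. The others, Traf4, Snrpa, Atn1, Kcnh6, Nyap1, Soga3, Jund and AKAP17A, had log2 fold changes of 0.34 to 1.04.

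**Figure D5:**
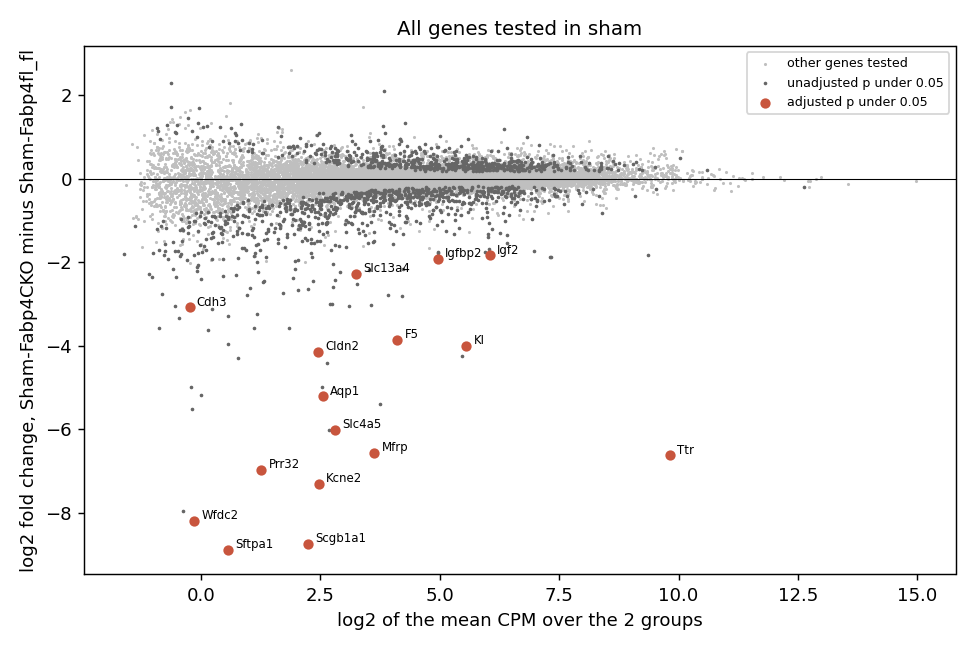
Each point is one of the 14395 genes tested, with the log2 of its mean CPM on the horizontal axis and its log2 fold change (Sham-Fabp4CKO minus Sham-Fabp4fl_fl) on the vertical axis. The 16 genes that passed the adjusted threshold are named and all lie below 0.

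Leaving out single libraries altered the calls. When the second Sham-Fabp4fl_fl library or any one knockout library was left out, 0 genes were called by edgeR. Without the first Sham-Fabp4fl_fl library 19 were called lower, and without the third 1331 were. All 16 kept a negative log2 fold change in each of the 6 fits, which follows from groups that did not overlap and is no further support. Ttr ran between -6.99 and -6.01 and Igfbp2 between -2.03 and -1.78. A test of any single value by exact permutation could not go below 0.1 with 3 libraries against 3.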

How the data were processed

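RNA was taken from brain tissue of mice in 12 samples, 3 for each of 4 groups, as poly(A) libraries sequenced on an Illumina NovaSeq instrument. The authors deposited a table of estimated counts per gene, of which 7.36% to 8.17% per library were not whole, and these expected counts were rounded here. The submitters' processing notes name Bowtie2 2.2.8, HISAT2, StringTie 1.3.1 and DESeq2, and the genome build was not given in the sources used here. Groups came from the labels, and the members and gene lists were chosen with earlier results of these data known.

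Genes were kept by edgeR's filter (minimum count 10, minimum total 15), normalized by TMM and tested with the quasi-likelihood F-test of edgeR 4.0.16 (R 4.3.3, limma 3.58.1) on the 6 sham libraries, two-sided, at a Benjamini-Hochberg adjusted p under 0.05. DESeq2 1.42.0 was an alternative, and 4 of its adjusted p-values were missing. The standard error was the log2 fold change divided by the root of F. A fit of all 12 libraries tested the difference of the genotype effect between sham and hemorrhage. Named genes were the targets and study genes, 12 a direction by smallest p among genes whose groups did not overlap, and up to 6 called members of each list or else the 2 of smallest p and the most abundant. A further 18 genes, among them Drd2, Gpnmb, Itgax, Kcnj13, Enpp2 and Otx2, were named after their values were seen. Fold bounds used a floor of 3 counts per library. On simulated counts for the sham comparison, with 14304 genes, 73 of 100 genes changed by 2-fold and 99 of 100 changed by 4-fold were called. There were 14 false calls. The changed genes were drawn from the more abundant ones, and no simulated library stood apart from its group. These rates therefore need not hold for the real libraries. Promoters came from RefSeq (GRCm38.p6), and figures used Python 3.11.15 and matplotlib 3.10.9.

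Same-numbered floxed and knockout libraries did not deviate together, with correlations of 0.074, -0.195 and -0.097. Depth per library was 17562598 to 22406216 counts. Alternatives covered the normalization, test, filter, depth, block, samples in the fit and the leaving out of each library. The values of 1 gene are not reported here.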

Additional observations from a re-analysis of the deposited data

Results flagged for a closer look

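The genotype effect on 2 of the genes named differed between sham mice and mice after hemorrhage, in edgeR's test of the difference itself over all 12 libraries. For Ttr the log2 fold change in sham minus that after hemorrhage was -5.73, from -6.63 in sham and -0.85 after hemorrhage, with an adjusted p of 0.0278. For Folr1 the difference was -7.33, with an adjusted p of 0.0278, a fitted value that depends on the prior count because ICH-Fabp4fl_fl held 1, 1 and 0 counts. In ICH-Fabp4CKO it had 12, 21 and 17 counts, a ratio of 23.3 to ICH-Fabp4fl_fl with a 95% interval of 6.13 to 198 for counting error only, while its log2 fold change in sham was -2.999. Both differences rest on the 3 Sham-Fabp4fl_fl libraries and the hemorrhage libraries, of which ICH-Fabp4CKO library 1 held no Ddx3y counts. The number of genes past the adjusted threshold was 0 when Sham-Fabp4fl_fl 2, any one Sham-Fabp4CKO library, ICH-Fabp4fl_fl 2, ICH-Fabp4CKO 1 or ICH-Fabp4CKO 3 was left out, and 371 without ICH-Fabp4CKO 2.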

How the results depend on the processing

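The count of genes lower in Sham-Fabp4CKO at the adjusted threshold was 16 under relative log expression size factors and under total counts, 139 by DESeq2 and 2 where each library had to hold at least 10 counts, a filter that removes genes near 0 in the knockout. The count of higher genes was 11 by DESeq2. Choroid plexus genes called lower numbered 22 by DESeq2 and 1 under that filter. With all 12 libraries in the fit, 49 genes were higher by the unadjusted threshold of 0.05 joined with a fold of 1.5. The difference between sham and hemorrhage was called for 266 genes by DESeq2. Leaving out single libraries gave 0 to 1531 higher and 0 to 1331 lower genes at the adjusted threshold, 61 to 851 higher and 287 to 996 lower at the unadjusted one with the fold, 0 to 22 choroid plexus genes, and 0 to 371 genes for the difference from hemorrhage. The highest counts in sham came without the third Sham-Fabp4fl_fl library, and the cause was not tested.

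The replicate numbers did not pair the libraries. A fit that added this number as a block called 11 genes lower, 10 of them among the 16, and 1 gene for the difference from hemorrhage. Ftl1 turned to a log2 fold change of 0.000260 under the block, and no other gene named turned.

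Some genes near 0 turned direction when single libraries were left out. The log2 fold change ran from -0.28 to 0.024 for Sparc, from -0.032 to 0.16 for Stab1, from -0.53 to 0.13 for Csf3r, from -0.36 to 0.000529 for Snap25, from -0.12 to 0.12 for Ftl1, from -0.57 to 0.28 for Car12 and from -0.18 to 0.037 for Ddx3y.

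The comparison of the third Sham-Fabp4fl_fl library alone with the knockout was chosen after seeing the data, and it assumes that the lone library varies like the knockout group. It gave 1 higher and 37 lower genes at the adjusted threshold, 13 of them among the 16, and 19 choroid plexus genes lower. At the unadjusted threshold with the fold, 247 were lower. The log2 fold change turned to 0.22 for Sparc, 0.59 for Trac, -0.12 for Cd4, 0.11 for Aspa, 0.24 for Opalin, 0.40 for Mbp, 0.29 for Snap25, -0.16 for Ppp1r1b, 0.13 for Neurod2, 0.22 for Prox1, 0.20 for Prkcd, -0.096 for Drd2 and 0.31 for Rgs16. It turned to 3.39 for Hcrt, 3.53 for Pmch, 0.13 for Fth1, 0.00562 for Ptgs2, 0.20 for Fabp3, 0.17 for Acsl6, 0.19 for Gfap, -0.12 for Per2, -0.12 for Tef, 0.015 for Ftl1 and 0.076 for Eif2s3y. None of the 16 turned, which follows from their groups not overlapping, and 25 of 34 list medians moved.

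With 3 libraries a group and 1 that stands apart, the counts of calls depend on the libraries kept, and Fabp4 and Tnf lay near the floor of counts.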
